A study of Mus musculus with 35 samples.

Results

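The response of podocytes to the proteasome inhibitor bortezomib was compared between Lmx1b C118F/lox mice and Lmx1b +/lox mice. For each gene, the change from DMSO to bortezomib in Lmx1b +/lox mice was subtracted from the same change in Lmx1b C118F/lox mice. The comparison drew on 23 of the 35 mice of the series and covered 11197 of 33292 listed genes, namely those for which all mice of any one of the 4 groups exceeded a TPM of 1. TPM is a unit of transcript abundance that corrects for the length of a gene and sums to the same total in every mouse.

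All of these mice carried 1 floxed Lmx1b allele, in which Cre recombinase removes the exons for the homeodomain. An rtTA driver active in podocytes, together with tetO::Cre, restricts the doxycycline-inducible Cre to these cells, and the mT/mG reporter turns cells green once Cre has acted. In Lmx1b C118F/lox mice (called C118F mice in the following) the other allele held the C118F substitution in the second LIM domain. In Lmx1b +/lox mice (called control mice) it was wild type, so the controls also lost an allele in their podocytes. The labels call this genotype WT, and the study's methods give it as Lmx1b +/lox. Mice of 7 to 10 weeks drank water with 2 mg/ml doxycycline. Bortezomib at 0.3 µg per g body weight or its solvent DMSO was injected every other day, and green cells were sorted on day 7. There were 6 control mice with DMSO, 6 control mice with bortezomib, 6 C118F mice with DMSO and 5 C118F mice with bortezomib, each sequenced on its own.

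Podocytes cover the glomerular capillaries with interlaced foot processes, and LMX1B is a transcription factor that they need to keep this shape. The proteasome degrades tagged proteins. Its blockade is known in many cells to call up chaperones, the unfolded protein response and, through the factor NFE2L1, new proteasome subunits. Interferon exchanges catalytic subunits of the proteasome for those of the immunoproteasome, which cuts peptides for display on MHC class I. Interferon-induced genes are switched on by transcription factors such as IRF9 and IRF7, which act through a short promoter element, the interferon-stimulated response element.

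The sorted cells carried the transcripts of podocytes. All 18 podocyte genes on the list followed were tested, and their summed level was 7904.6 TPM in the lowest of the 23 mice, a DMSO-treated C118F mouse. Lmx1b itself (chromosome 2 of GRCm39) had 44.8, 71.5 and 89.7 TPM as the lowest, median and highest value in control mice with DMSO and 54.9, 88.1 and 125 TPM in those with bortezomib. In C118F mice it had 37.4, 104 and 185 TPM with DMSO, and the 5 mice with bortezomib stood at 67.5, 128, 123, 152 and 145 TPM. The 4 groups overlapped, and the difference of the responses was 0.06 on the log2 scale (standard error 0.40, 95% confidence interval -0.76 to 0.87, limma adjusted p = 1). These values sum both alleles and all exons, so that they check neither the substitution nor the deletion.

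No gene passed the threshold for a difference between the responses. The lowest adjusted p of limma was 0.471, so that the share called at an adjusted p under 0.05 was 0% of 11197 genes. At an unadjusted p under 0.05, 342 genes (3.05%) had a more positive and 218 genes (1.95%) a more negative response in C118F mice. Together these 560 genes make up 5% of the genes tested, the share that the threshold allows in the absence of any difference. The split of these genes moved with the scaling, for 254 were more positive and 292 more negative when the log2 values of each mouse were shifted to a common median. The design had a median standard error of 0.255 and a median half-width of the 95% confidence interval of 0.526 on the log2 scale. In simulated data of these groups, 110 of 200 genes given a difference of 1 on the log2 scale were called, and 179 of 200 given a difference of 2. The simulation gave each gene the same spread in every group.

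Within the genotypes, bortezomib changed 8 genes in C118F mice and none in control mice at an adjusted p under 0.05. These calls rest on a single error per gene, shared by the 4 groups, although the spread could be unequal. The standard deviation of the mean log2 level of the interferon-induced genes was 1.06 in DMSO-treated C118F mice and 0.28 in bortezomib-treated ones. In control mice it was 0.13 with DMSO and 0.23 with bortezomib. In C118F mice 1 gene rose (0.00893%) and 7 fell (0.0625%), and in control mice the share was 0%, with 0.254 as the lowest adjusted p. At an unadjusted p under 0.05 there were 618 higher (5.52%) and 328 lower genes (2.93%) in C118F mice, and 273 higher (2.44%) and 355 lower genes (3.17%) in control mice. With values shifted to a common median, the C118F counts were 412 higher and 487 lower. The number of 8 rested on single mice. It was 1 without any one of replicates 2, 3, 4 and 5 of the bortezomib-treated C118F mice, replicates 1 and 6 of the DMSO-treated C118F mice, or replicates 2, 3 and 5 of the DMSO-treated control mice. It was 2 without replicate 2 or 5 of the DMSO-treated C118F mice and 57 without their replicate 3.

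Of the 7 genes that fell in C118F mice, 5 were on the list of interferon-induced genes: Lgals3bp, Isg15, Xaf1, Usp18 and Ifi27. The other two were Lgals9, for galectin-9, and Cd200, for a membrane glycoprotein that dampens myeloid cells. Tnxb, which encodes the matrix glycoprotein tenascin-X, was the gene that rose. Tnxb passed the filter on low values only through the bortezomib-treated C118F mice, and Cd200 and Usp18 only through the DMSO-treated ones. Since these 3 genes were tested only through the group in which they were high, a difference in that direction was built into their selection, and their calls are given as a description. Over all genes tested, 149 and 123 genes passed by these routes. The 8 genes are treated in turn, beginning with those that also had the lowest p-values for the difference of the responses.

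Lgals3bp (ENSMUSG00000033880, chromosome 11 of GRCm39 from 118280716 to 118292918) encodes a secreted galectin-binding glycoprotein. It had 9.47, 14.3 and 18.2 TPM as lowest, median and highest value in DMSO-treated and 9.43, 13.1 and 19.2 TPM in bortezomib-treated control mice. DMSO-treated C118F mice had 35, 71.7 and 107.9 TPM, and the 5 bortezomib-treated C118F mice had 21.2, 23.3, 10.1, 10.6 and 21.7 TPM. Every bortezomib-treated C118F mouse thus lay below every DMSO-treated one, while the control groups overlapped. The share of all genes tested whose groups do not overlap was not counted. Here and below, the absence of overlap is given only as a description. The log2 response was -1.90 in C118F mice (limma adjusted p = 0.00489) and -0.04 in control mice. Their difference of -1.86 (standard error 0.38) had the lowest p of all genes, 6.09e-05, and did not pass the adjustment.

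For Lgals9 and Tapbp, too, every bortezomib-treated C118F mouse lay below every DMSO-treated one. Lgals9 had 12.0, 18.8 and 26.1 TPM in DMSO-treated and 15.2, 17.0 and 32.8 TPM in bortezomib-treated control mice. In C118F mice it had 39.3, 76.4 and 168 TPM with DMSO against 32.4, 22, 19.0, 25.9 and 25.2 TPM with bortezomib, without overlap. The difference of the log2 responses was -1.76 for Lgals9 (standard error 0.42, limma adjusted p = 0.471). Tapbp (tapasin, which loads peptides onto MHC class I) had 779.3, 946.5 and 1287.4 TPM in DMSO-treated C118F mice and 711, 724, 533, 586 and 640 TPM after bortezomib, again without overlap. Control mice had 424, 527 and 604 TPM with DMSO and 483, 587 and 639 TPM with bortezomib, and the difference of the responses was -0.71 (standard error 0.17, limma adjusted p = 0.566).

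**Figure D1:**
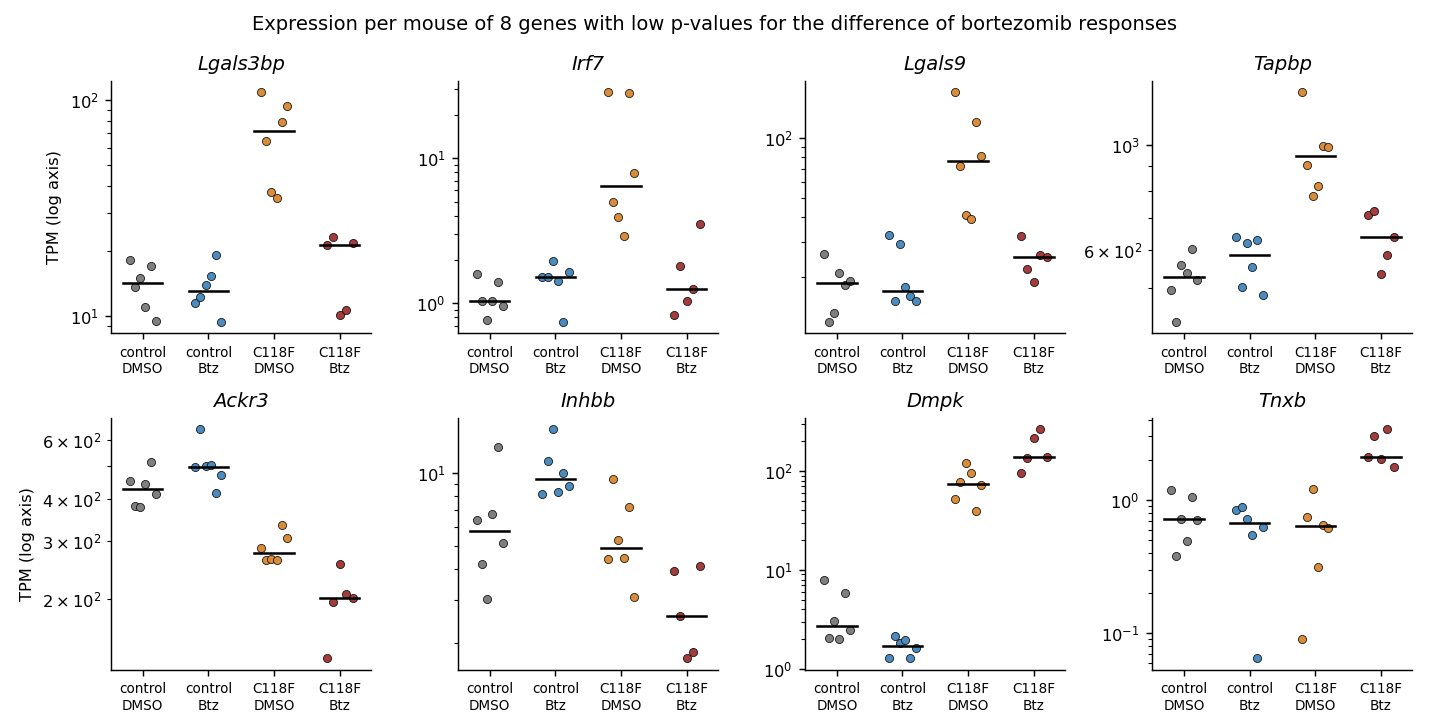
TPM of 8 genes on a log axis (y) in each of the 23 mice, by genotype and treatment (x; Btz, bortezomib); points are mice and bars are group medians. For Lgals3bp, Lgals9, Tapbp and Ackr3 the bortezomib-treated C118F mice lie below all DMSO-treated C118F mice, for Tnxb above them, and for Irf7, Inhbb and Dmpk the groups overlap.

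The interferon-induced genes were the list with the lowest median difference of the responses. The list held 60 genes, of which 59 were in the table and 40 were tested. Of these, 38 had a difference below 0 and 28 an unadjusted p under 0.05, none in the positive direction, beside 1.95% of all genes tested. The median difference was -1.51, against 0.06 over all genes tested, and the median response was -1.51 in C118F and -0.04 in control mice. None of the 40 passed the adjusted threshold for the difference. Of the genes tested, 32 had passed the filter on low values in all 4 groups and 5 only through the DMSO-treated C118F mice. Of those 32 genes, 30 had a difference below 0 and 21 an unadjusted p under 0.05, with a median of -1.32. The counts describe a list drawn up with earlier results of these data known.

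The level of these genes under DMSO differed widely between C118F mice. The mean log2(TPM + 1) over the 40 genes was 6.77, 4.86, 4.22, 4.60, 6.6 and 5.44 in DMSO-treated C118F mice and 4.03, 4.02, 3.60, 3.86 and 4.38 in those with bortezomib. Replicates 1 and 5 of the DMSO-treated mice were highest, and their lowest mouse, replicate 3, lay within the range of the bortezomib-treated mice. In control mice the means ran from 3.74 to 4.06 with DMSO and from 3.55 to 4.16 with bortezomib, so that these groups overlapped. Without replicate 1 of the DMSO-treated C118F mice the median difference was -1.19, and without replicate 5 it was -1.23. Without the 3 libraries of lowest depth, most leukocyte RNA and most tubule RNA, it was -1.45, with 23 genes at an unadjusted p under 0.05.

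**Figure D2:**
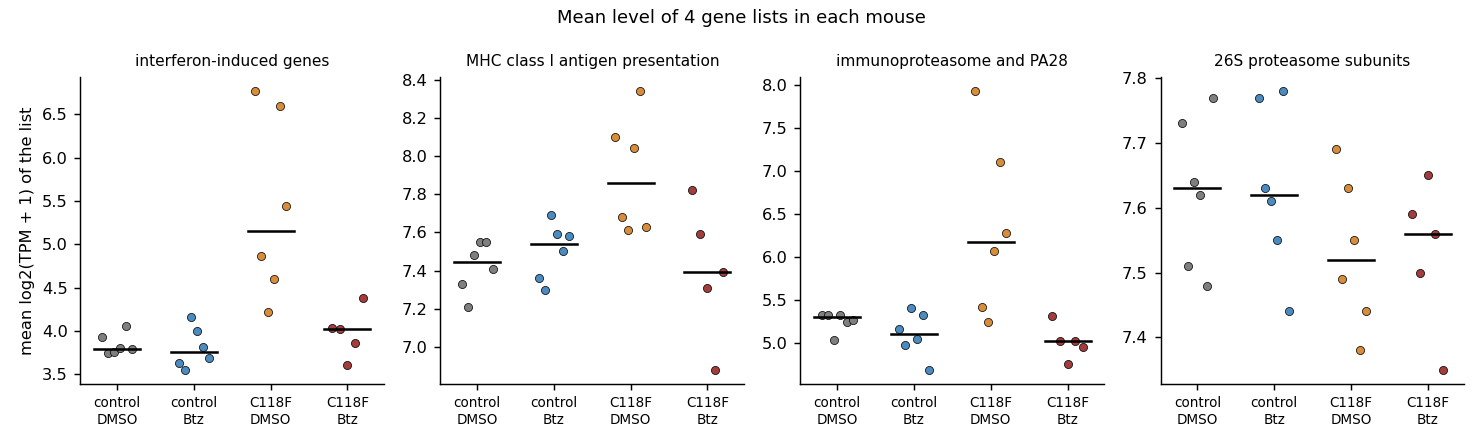
Mean log2(TPM + 1) over the tested members of 4 gene lists (y) in each mouse, by genotype and treatment (x); points are mice, bars are group medians, and the y axes differ. Interferon-induced genes run from 4.22 to 6.77 in DMSO-treated C118F mice and from 3.60 to 4.38 in bortezomib-treated ones, while the 26S proteasome subunits overlap in all groups.

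Regulators and effectors of the interferon response were seen among the 40 genes. Irf7, a transcription factor that amplifies type I interferon, had 2.92, 6.48 and 28.4 TPM in DMSO-treated C118F mice and 0.833, 1.81, 1.04, 1.24 and 3.53 TPM after bortezomib. Control mice stayed between 0.746 and 1.95 TPM under either treatment. The C118F groups overlapped by 1 mouse. Irf7 was tested only through the DMSO-treated C118F mice, where it was high, and the difference of the responses was -2.16 (standard error 0.56, limma adjusted p = 0.701).

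Irf9, which encodes a subunit of the factor that binds the response element, had a difference of -1.57 (standard error 0.54). Ifit1, which encodes an inhibitor of viral translation, had medians of 24.8 and 3.64 TPM in C118F mice with DMSO and bortezomib. The log2 response of -2.35 did not pass (limma adjusted p = 0.0764), and the DMSO-treated C118F mice ranged from 4.78 to 89.8 TPM. In control mice the medians were 3.97 and 3.92 TPM. Its difference was -2.45 (standard error 0.70).

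Tgtp2 and Gbp3 encode interferon-induced GTPases against intracellular pathogens, and their differences of -3.66 (standard error 1.22) and -2.86 (standard error 0.99) were among the most negative. Tgtp2 too was tested only through the DMSO-treated C118F mice. It had 637, 9.01, 1.74, 14.2, 201 and 23.1 TPM in DMSO-treated C118F mice, and its 2 highest values were those of replicates 1 and 5. After bortezomib the C118F mice had 0.446 to 3.52 TPM, which overlapped with the DMSO group. Ifitm3, which restricts viral entry, had a difference of -2.40 (standard error 1.16), which was -1.69 without replicate 1 of the DMSO-treated C118F mice.

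The other genes of the list that passed in C118F mice were effectors and regulators of the response. Isg15, a ubiquitin-like modifier, had 23.6, 33.8 and 181 TPM in DMSO-treated C118F mice and at most 17.6 TPM after bortezomib, with a response of -2.15 (limma adjusted p = 0.0378). Usp18, the protease that removes ISG15, fell from 4.89, 6.17 and 26.1 TPM to at most 2.64 TPM, a response of -2.08, and was tested only through the DMSO-treated C118F mice. Ifi27, the most abundant gene of the list, fell from 386, 476 and 708 TPM to 325 TPM at the median, with a highest value of 341 TPM. In none of these 3 genes did the C118F groups overlap, which is a description without its share over all genes tested. They overlapped for Xaf1, which encodes an antagonist of an apoptosis inhibitor, with a range of 13.0 to 59.4 TPM under DMSO, 4.22 to 13.3 TPM under bortezomib and a response of -1.65 (limma adjusted p = 0.0378). Samhd1 and Eif2ak2 were the 2 genes of the list with a difference above 0, at 0.06 (standard error 0.23) and 0.08 (standard error 0.44).

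Promoters are shown for 6 genes of this account because their differences were negative and their promoters contain the core of the interferon-stimulated response element. The core was searched as GAAA, NN (any pair of bases) and again GAAA, on both strands, overlapping matches included, in RefSeq promoters (250 bases before to 50 after the start of the gene, from GRCm38.p6). It was found in 17 of 33 tested interferon-induced genes with a promoter in the table (51.5%), in 287 of 8610 tested genes with a promoter (3.33%) and in 1079 of 27025 genes of the whole table (3.99%). Each stretch of 100 bases was placed on GRCm39 by an exact match and is written 5′ to 3′ on the strand of the gene, with the matches in capitals.
Isg15 (chr4:156285293-156285392, minus strand): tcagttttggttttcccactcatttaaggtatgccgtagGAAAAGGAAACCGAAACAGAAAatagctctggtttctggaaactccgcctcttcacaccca
Ifit1 (chr19:34618149-34618248, plus strand): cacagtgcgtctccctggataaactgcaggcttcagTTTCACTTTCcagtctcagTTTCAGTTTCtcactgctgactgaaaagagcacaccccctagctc
Tgtp2 (chr11:48955055-48955154, minus strand): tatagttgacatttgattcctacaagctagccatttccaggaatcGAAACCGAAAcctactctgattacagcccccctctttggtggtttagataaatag
Lgals9 (chr11:78875716-78875815, minus strand): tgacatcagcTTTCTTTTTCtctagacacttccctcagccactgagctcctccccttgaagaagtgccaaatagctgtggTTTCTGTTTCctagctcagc
B2m (chr2:121977984-121978083, plus strand): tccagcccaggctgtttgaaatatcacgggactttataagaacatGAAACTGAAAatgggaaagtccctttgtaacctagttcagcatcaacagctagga
Cxcl10 (chr5:92496899-92496998, minus strand): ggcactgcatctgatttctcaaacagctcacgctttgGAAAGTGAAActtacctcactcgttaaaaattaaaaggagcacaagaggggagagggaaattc

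Isg15 held 3 overlapping matches, the first beginning 78 bases before the start of the gene, and Ifit1 and Lgals9 held 2 each. In the windows of Lgals3bp, Irf7, Tapbp, Psmb8 and Psmb9 these letters were not found. Among the 40 interferon-induced genes, the 17 with a match had a median difference of -1.69 (16 of 17 below 0) and the 16 without a match a median of -1.39 (15 of 16 below 0). These medians include the 5 genes tested only through the DMSO-treated C118F mice, whose negative direction was built into their selection. The list was made up of genes known to be induced by interferon, so that its share of matches is no result of these data. A match is a string of letters and not a binding site.

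The immunoproteasome and its activator PA28 had lower differences than the standard proteasome. All 5 tested genes had a difference below 0, with a median of -1.04 and a median response of -1.26 in C118F and -0.19 in control mice, and none passed the adjusted threshold. The catalytic subunit gene Psmb8 had 5.13, 21.4 and 156 TPM in DMSO-treated C118F mice and 4.95, 4.84, 3.26, 5 and 2.86 TPM after bortezomib. Every treated mouse lay below the DMSO group, although its lowest mouse was close. The difference was -2.04 for Psmb8 (standard error 0.73, limma adjusted p = 0.836), -1.82 for Psmb9 (standard error 0.58) and -1.04 for Psmb10 (standard error 0.45), all catalytic, and -0.59 for Psme2 (standard error 0.30), a subunit of PA28. At an unadjusted p under 0.05 there were 3 of the 5 genes, beside 1.95% of all genes tested. The count was 5 without replicate 2 or replicate 3 of the DMSO-treated C118F mice and 5 with all 35 mice in 1 fit. It was 2 without replicate 4 of the bortezomib-treated or replicate 1 or 5 of the DMSO-treated C118F mice, or replicate 3 or 5 of the bortezomib-treated control mice, and 1 with limma voom on recovered reads.

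For the 33 subunits of the 26S proteasome, all tested, the differences ran from -0.16 to 0.24 with a median of -0.01, 15 above and 18 below 0. None had an unadjusted p under 0.05. The median response to bortezomib was 0.01 in C118F and -0.01 in control mice. Psma6, the most abundant of them, had medians of 578 and 594 TPM in control and 557 and 561 TPM in C118F mice with DMSO and bortezomib. Nfe2l1, for the factor that drives these genes when the proteasome is blocked, had a difference of 0.34 (standard error 0.18, limma adjusted p = 0.996), with overlap between 695 to 1127 TPM and 926 to 1185 TPM in C118F mice.

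MHC class I genes followed the interferon-induced genes at a smaller size. Of 16 genes, 15 were tested, 12 had a difference below 0 and 7 an unadjusted p under 0.05, none in the positive direction. Of all 11197 genes tested, 4406 had a difference below 0, and 1.95% were lower at an unadjusted p under 0.05. The median difference was -0.71, and the median response was -0.58 in C118F and 0.08 in control mice, with none called. The class I heavy chain genes H2-K1 and H2-M3 had differences of -0.93 (standard error 0.25) and -0.90 (standard error 0.25), and limma's adjusted p was 0.701 for both. B2m, the light chain, had 1225.3, 1532.6 and 1857.2 TPM in DMSO-treated and 1159.0, 1591.4 and 1840.3 TPM in bortezomib-treated control mice.

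In C118F mice B2m had 4339.2, 7844.0 and 12737.9 TPM with DMSO and 9307, 4989, 2678, 2544 and 3099 TPM with bortezomib. The groups overlapped, with replicates 1 and 2 of the bortezomib-treated mice above the lowest DMSO-treated mouse, and the difference was -0.96 (standard error 0.39, limma adjusted p = 0.935). H2-T22, H2-Q7 and Pdia3 had differences above 0, of 0.57, 0.09 and 0.01. H2-Q7 had 83.2 to 237 TPM in the control mice and 0.477 to 30.4 TPM in the C118F mice. H2-T22 ranged from 6.45 to 61.9 TPM within the C118F mice. Class I heavy chain genes are similar copies between which reads may be split, and whether this affected the values was not tested.

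**Figure D3:**
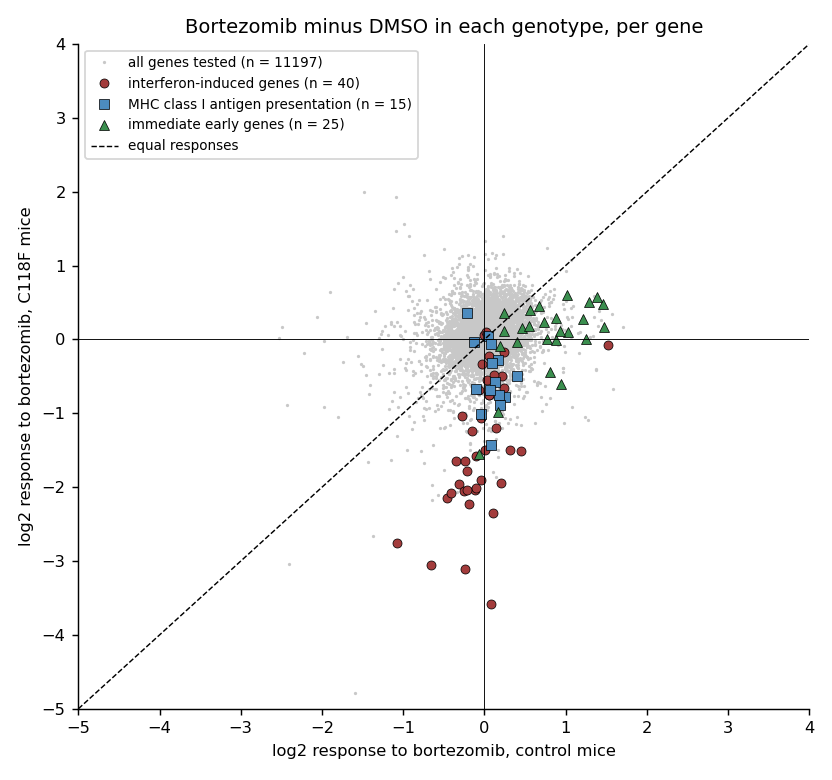
Log2 response to bortezomib in C118F mice (y) against that in control mice (x) for each gene; grey points are all 11197 genes tested, coloured symbols are 3 lists, and the dashed line marks equal responses. Interferon-induced genes extend downwards near 0 on the x axis, with medians of -1.51 in C118F and -0.04 in control mice, while immediate early genes lie to the right, with medians of 0.16 and 0.81.

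The genotypes differed more under DMSO than under bortezomib for these genes. Under DMSO, C118F mice had 33 of the 40 interferon-induced genes higher and none lower than control mice at an adjusted p under 0.05, beside 15% higher and 18.8% lower of all genes tested. For the 5 genes tested only through the DMSO-treated C118F mice, this direction was built into their selection. Of the 32 genes that passed the filter in all 4 groups, 25 were higher. Under bortezomib, 2 of the 40 were higher and 1 was lower, beside 13.7% and 11.6% of all genes tested. The median difference between the genotypes was 1.48 under DMSO and 0.14 under bortezomib, and the step between the treatments is, gene by gene, the same contrast as the difference of the responses. For MHC class I genes, 10 of 15 were higher and 2 lower under DMSO and 4 higher and 2 lower under bortezomib, with medians of 0.93 and 0.16.

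Other positions of the lowest p-values were taken by genes without a common list. Ackr3, a scavenging receptor for the chemokine CXCL12, had 378, 427 and 517 TPM in DMSO-treated and 418, 499 and 646 TPM in bortezomib-treated control mice. In C118F mice it had 262, 275 and 334 TPM with DMSO and 133, 196, 256, 207 and 201 TPM with bortezomib, all below the DMSO group. Its difference was -0.77 (standard error 0.18, limma adjusted p = 0.471). Inhbb, which encodes the beta B subunit of activins and inhibins, had a difference of -1.47 (standard error 0.38, limma adjusted p = 0.701), with medians of 5.75 and 9.39 TPM in control and 4.88 and 2.57 TPM in C118F mice.

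Dmpk, which encodes the kinase of myotonic dystrophy, had the lowest p among the positive differences, 0.000117. Control mice had 2.02, 2.74 and 7.99 TPM with DMSO and 1.28, 1.72 and 2.16 TPM with bortezomib. The DMSO-treated C118F mice had 39.6, 74.9 and 120 TPM, and the bortezomib-treated ones had 96.0, 136, 214, 266 and 138 TPM. The treatment groups overlapped in either genotype, whereas every C118F mouse lay above every control mouse. The log2 response was 1.15 in C118F (limma adjusted p = 0.206) and -0.74 in control mice, and their difference was 1.89 (standard error 0.41, limma adjusted p = 0.471).

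Tnxb was a gene of low level, at most 1.22 TPM in each mouse of the other 3 groups and at 2.11, 3.04, 2.02, 3.4 and 1.75 TPM in bortezomib-treated C118F mice. All 5 lay above the other 3 groups, and the gene was tested only through these 5 mice. The response in C118F mice was 1.12 (limma adjusted p = 0.0378), and the difference was 1.25 (standard error 0.29) with a pseudocount of 1 but 2.43 with a pseudocount of 0.1. Otud7b, a deubiquitinase, had a difference of 0.71 (standard error 0.18, limma adjusted p = 0.701) from 86.8 to 151 TPM under DMSO and 133 to 175 TPM under bortezomib in C118F mice.

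Gm45069 and Gm20732 are long noncoding RNAs, with differences of 3.47 (standard error 0.79) and 1.73 (standard error 0.40). With a pseudocount of 0.1 that of Gm45069 was 6.93, and this gene was tested only through the bortezomib-treated C118F mice, where it was high. In DMSO-treated C118F mice Gm45069 was listed at 0 to 0.632 TPM, and the bortezomib-treated ones had 2.61, 10.8, 3.31, 1.98 and 3.16 TPM. DMSO-treated control mice ranged from 0 to 13.7 TPM, so that the difference also drew on the spread of the controls. Among the largest positive differences at an unadjusted p under 0.05 were those of Eno3 (muscle enolase), at 3.01 (standard error 1.12), and Mylpf (fast muscle myosin light chain), at 2.55 (standard error 0.74). For both of them the highest DMSO-treated control mouse was replicate 1, at 97.8 and 167 TPM. In C118F mice Eno3 had 10.7 to 99.7 TPM with DMSO and 82.7, 63.2, 491, 701 and 11.6 TPM with bortezomib. The C118F groups overlapped for Eno3 and for Mylpf.

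Cd200, tested only through the DMSO-treated C118F mice, had a response of -4.78 in C118F mice (limma adjusted p = 0.0378). Of the DMSO-treated C118F mice, 5 had 83.1 to 159 TPM and replicate 5 had 1.89 TPM, and all bortezomib-treated ones had 0.411 to 1.90 TPM. In control mice it ranged from 0.449 to 70.3 TPM with DMSO and from 0.370 to 3.15 TPM with bortezomib. The difference was -3.18 (standard error 1.23, limma adjusted p = 0.922).

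For the stress pathways known from blocked proteasomes, the median differences of the responses lay near the 0.06 of all genes tested. Of the 23 cytosolic heat shock chaperones, all tested, 11 had a difference above and 12 below 0, with a median of -0.02. For the 28 genes of the unfolded protein response it was 16 and 12, with a median of 0.01. The median response of these 28 genes was 0.19 in C118F mice, with 5 below 0, and 0.17 in control mice. Over all genes tested the median responses were 0.06 and 0.01, with 4262 of 11197 below 0 in C118F mice. For the 22 tested genes of oxidative stress and NRF2, 11 had a difference above and 11 below 0, with a median of -0.01. For autophagy and lysosome, 20 of 31 were above 0, with a median of 0.05. No gene of these lists passed the adjusted threshold for the difference of the responses or for the response to bortezomib in either genotype. Ctsl, for the protease cathepsin L, had the lowest p of the last list, with a difference of -0.80 (standard error 0.28).

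**Figure D4:**
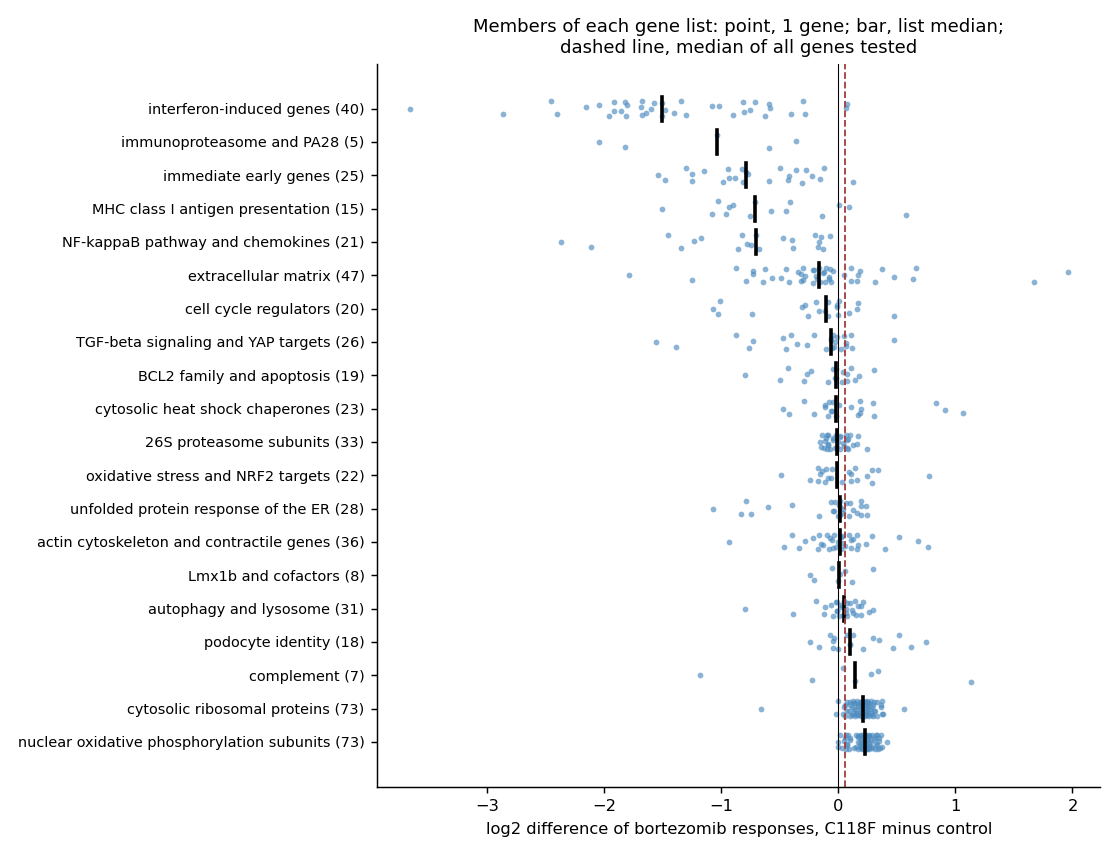
Difference of the bortezomib responses on the log2 scale, C118F minus control mice (x), for the tested members of 20 gene lists (y, number of genes in parentheses); points are genes, black bars list medians, and the dashed line is the median of 0.06 over all genes tested. The medians run from -1.51 for interferon-induced genes to 0.23 for subunits of oxidative phosphorylation, and the 26S proteasome subunits form a narrow cloud around 0.

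Immediate early genes, which are induced within minutes and also by the dissociation of tissue, had a median difference of -0.79, with 24 of 25 below 0 and none called. Their median response was 0.81 in control and 0.16 in C118F mice. Without replicate 1, 3 or 5 of the DMSO-treated C118F mice the latter was -0.06, 0.07 or 0.26. It was 0.03 without replicate 5 of the bortezomib-treated C118F mice, -0.08 with array weights and 0.04 with mouse numbers as a covariate. Among control mice the summed level of the list was lowest in replicates 1 and 6 with DMSO, at 13391.8 and 25757 TPM, with a group median of 49875.7 TPM. Among C118F mice it was lowest in replicate 1 with DMSO, at 14716.2 TPM, with a group median of 37173.2 TPM. Without replicate 1 of the DMSO-treated control mice the median difference was -0.34. Egr3, a growth-induced zinc finger factor, had 0.654, 4.09 and 10.4 TPM in DMSO-treated and 2.04, 9.73 and 21.9 TPM in bortezomib-treated control mice, and its difference was -1.54 (standard error 0.72). All groups overlapped.

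The NF-kappaB pathway and its chemokines had a median difference of -0.70, with 21 of 21 tested genes (of 33 listed) below 0, beside 4406 of all 11197 genes tested, and none called. With genes of low values kept, 29 of 33 were below 0 and the median was -0.40. The median response was 0.40 in control and -0.10 in C118F mice. On leaving out a mouse the latter ran from -0.22 to 0.01, changing sign without replicate 5 of the DMSO-treated C118F mice. It was -0.29 with mouse numbers as a covariate. Cxcl10 and Cxcl1 encode chemokines for T cells and neutrophils, and their differences were -2.12 (standard error 0.69) and -2.37 (standard error 0.85). Cxcl10 had 1.2, 2.19 and 3.27 TPM in DMSO-treated and 3.09, 3.85 and 19.5 TPM in bortezomib-treated control mice. In C118F mice it had 17.4, 37.1 and 104 TPM with DMSO and 34.3, 16.1, 3.49, 13.3 and 46.6 TPM with bortezomib, which overlapped.

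Small positive differences were shared by 72 of 73 nuclear subunits of oxidative phosphorylation (median 0.23) and 70 of 73 cytosolic ribosomal proteins (median 0.21), beside 6791 of 11197 genes overall. The median responses were -0.19 and -0.25 in control mice and 0.02 and -0.04 in C118F mice. No member was called. Without the 3 libraries of lowest depth, most leukocyte RNA and most tubule RNA the medians were 0.10 and 0.11. That of the ribosomal proteins was 0.12 without replicate 1 of the bortezomib-treated and 0.11 without replicate 6 of the DMSO-treated C118F mice. Ndufa10, for a subunit of complex I, had a difference of 0.35 (standard error 0.15).

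Of the 18 podocyte genes, 11 had a difference of the responses above 0, with a median of 0.10, and none was called. The median response was 0.34 in C118F mice, where 2 of 18 were below 0 and 5 were higher at an unadjusted p under 0.05, beside 5.52% of all genes tested. In control mice it was 0.15, with none at an unadjusted p under 0.05. None passed the adjusted threshold in either genotype. The summed level of the list had medians of 37270.8 and 34454.3 TPM in control and 11172.9 and 14159.1 TPM in C118F mice with DMSO and bortezomib. Synpo (synaptopodin, which binds actin in foot processes) had a difference of 0.62 (standard error 0.29). Its C118F groups overlapped, from 257 to 745 TPM with DMSO and from 578 to 836 TPM with bortezomib.

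For the extracellular matrix, 47 of 73 genes were tested, with a median difference of -0.16 and 34 below 0. For actin and contractile genes it was 0.01, with 19 of 36 above 0, and for complement 0.14, with 5 of 7 above 0. The lists for TGF-beta signaling and YAP targets, BCL2 and apoptosis, and the cell cycle had medians of -0.06, -0.02 and -0.10. None of their genes was called for the difference. On leaving out a mouse, the medians ran from -0.23 to -0.10 for the matrix and from 0.07 to 0.22 for complement. Those of TGF-beta signaling and YAP targets and of the cell cycle ran from -0.14 to -0.03 and from -0.19 to -0.06. Ccn2, for a matricellular protein induced by TGF-beta and YAP, had a difference of -0.87 (standard error 0.30), and Adamts1, a matrix protease, one of -1.79 (standard error 0.74).

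The 10 genes that the study followed by staining or qPCR were examined one by one, and none passed the adjusted threshold for the difference. The study picked these genes with these libraries in hand, so that they are no independent evidence of a direction. Serping1, the C1 inhibitor, had the lowest p among them, 0.00513, with a difference of -1.18 (standard error 0.38, limma adjusted p = 0.817). It had 97.1, 130 and 267 TPM in DMSO-treated and 137, 158 and 191 TPM in bortezomib-treated control mice. The C118F mice had 515.5, 1041.8 and 1669.5 TPM with DMSO and 350, 741, 347, 376 and 840 TPM with bortezomib, and these groups overlapped. The study's qPCR gave no significant changes for Serping1, and the paper states that its sequencing result was not reproduced. B2m, given above, was the other gene with an unadjusted p under 0.05.

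For the remaining 8 genes the differences lay between -0.25 for Lgals3 (galectin-3, standard error 1.09) and 0.29 for Pak1 (a kinase of the actin cytoskeleton, standard error 0.20). Lgals3 was at -1.56 without the 3 libraries of lowest depth, most leukocyte RNA and most tubule RNA. Cdkn1c, a cell cycle inhibitor of podocytes, had a difference of -0.16 (95% confidence interval -0.86 to 0.53), and Cldn5, for the tight junction protein claudin-5, one of 0.00 (95% confidence interval -0.71 to 0.71). The actin-binding genes Tagln and Flna had differences of -0.13 and 0.12. These estimates change sign with the processing, as do those of Lgals3, Mustn1, Cdkn1c, Cldn5 and Cd63. Intervals of this width leave room for differences in either direction.

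**Figure D5:**
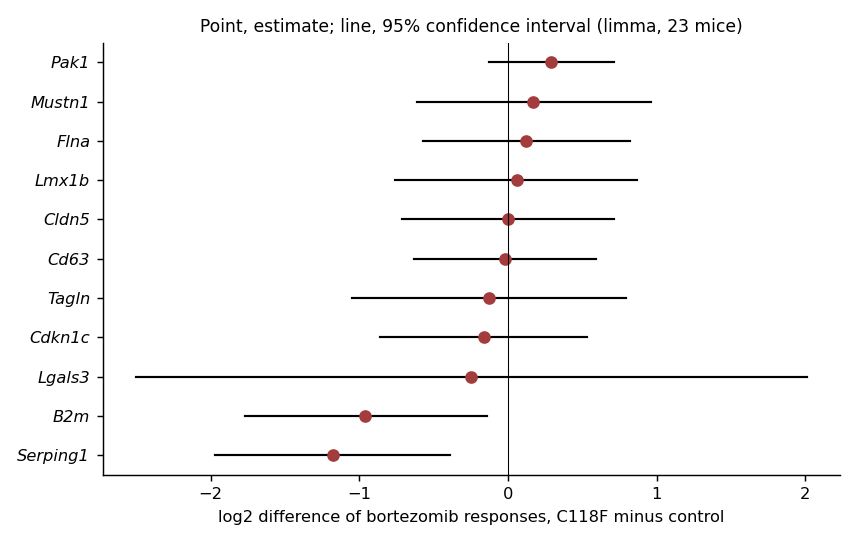
Difference of the bortezomib responses on the log2 scale, C118F minus control mice (x), for the 10 genes that the study followed and Lmx1b (y); points are estimates and lines 95% confidence intervals of limma over 23 mice. The intervals of Serping1 and B2m lie below 0, at estimates of -1.18 and -0.96, and the others cross 0.

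Markers of other cells were followed as summed levels in each mouse. Those of the parietal epithelium, led by Spp1, ran from 151.8 to 1125.3 TPM over the 23 mice, with overlap of all groups. The leukocyte list had 3 of 14 genes tested, and its summed level was 560 TPM in replicate 1 of the DMSO-treated control mice, where Lyz2 alone had 285 TPM, 98.4 TPM in their replicate 6 and at most 53.1 TPM in the other 21 mice. In the bortezomib-treated C118F mice the sums were 16.9 to 22.7 TPM, and 10 of the 14 markers were below 1 TPM in every mouse. Lyz2 had a difference of 2.66 (standard error 1.21), or 4.2 with a pseudocount of 0.1, and at most 4.24 TPM in the C118F mice. It was tested only through the DMSO-treated control mice, where it was high. All 3 tested leukocyte genes had a difference above 0, with a median of 0.87 and none called. At an unadjusted p under 0.05, 2 of them were higher, beside 3.05% of all genes tested. Csf1r, another of the 3, had medians of 3.67 and 2.82 TPM in control mice with DMSO and bortezomib. In C118F mice they were 8.33 and 11.9 TPM, and the groups overlapped. Tubule sums were highest in replicate 2 of the DMSO-treated control mice, at 2046 TPM for the proximal tubule (Gatm being the most abundant gene over the groups) and 1749 TPM for the thick limb and distal tubule (Egf).

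The endothelial sum was 183 TPM in replicate 1 of the DMSO-treated C118F mice and at most 76.8 TPM elsewhere, with Ehd3 as the most abundant gene. The sum of the mesangial and smooth muscle list was 3252 TPM in the same mouse and 516 to 977 TPM in the other C118F mice, against 38.8 to 185 TPM in control mice. Des, the most abundant gene of this list by group median and also expressed by injured podocytes, had 528.6 TPM in that mouse. Of the mesangial list 4 of 10 genes were tested, 3 with a difference below 0, and the median difference was -0.56, with a median response of -0.66 in C118F and -0.03 in control mice. None was called, and Agtr1a, for the angiotensin II receptor, had the lowest p, 0.032, with a difference of -1.33 (standard error 0.58). Ehd3, the single endothelial gene tested, had a difference of -0.50 (standard error 0.25). The mouse with the highest mesangial sum also had the highest level of the interferon-induced genes. Their other high mouse, replicate 5, had sums of 23.01 TPM for the endothelium and 813 TPM for the mesangial list, within the range of the remaining C118F mice. The part of other cells in the differences was not tested, and in bulk samples fewer cells of a type and less RNA per cell cannot be told apart. Erythrocyte markers, with Hbb-bs as the most abundant, had no tested gene.

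The H77L line, with a substitution in the first LIM domain, was set beside C118F. Its own comparison against the same control mice held 11163 genes, of which 18.2% had an unadjusted p under 0.05 and none an adjusted p under 0.05. Since both comparisons share the control mice, their values are only given side by side. The H77L medians cover only those list members that also passed the filter of the H77L comparison. The C118F medians include genes tested only through the DMSO-treated C118F mice. Over the interferon-induced genes that passed in all 4 groups, the C118F median was -1.32. The median difference of the interferon-induced genes was -0.36 in H77L and -1.51 in C118F mice, that of the MHC class I genes -0.43 and -0.71, and that of the immunoproteasome 0.07 and -1.04. For immediate early genes it was -0.89 and -0.79. Lgals3bp had -1.30 and -1.86, Ackr3 -0.51 and -0.77, Dmpk 0.90 and 1.89, and Psmb8 -0.04 and -2.04. Whether the 2 lines differ from each other was not tested here.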

How the data were processed

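The authors sorted green podocytes by FACS and prepared SMART-Seq libraries from poly(A) RNA. According to the paper and the submitters' processing notes, single-end reads were trimmed with Trim Galore 0.6.7, aligned to GRCm39 with STAR and counted per gene with featureCounts 1.6.3, and Picard is also named. The values the authors deposited are TPM, and the step from counts to TPM is not given in the sources used here. Gene names came from GENCODE vM39, with 32776 of 33292 identifiers found. Whole reads recovered from the steps of the TPM values (93.8% of 23943 expressed genes, within 0.001 of a whole read) gave depths of 5269087 to 23994098 reads in the 23 mice, with a median of 19236724. The lowest depth was that of replicate 2 of the bortezomib-treated C118F mice. The spread between mice served as the error, because PCR copies of a molecule cannot be counted apart.

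For testing, log2(TPM + 1) was used, which understates the change of low genes. The fit over the 4 groups used lmFit and eBayes with trend of limma 3.58.1 (R 4.3.3), and p-values were adjusted by Benjamini-Hochberg over 11197 genes. Adjusted p-values in the report are from this fit. Named genes were the 10 lowest p-values, the 5 largest and 5 smallest differences at an unadjusted p under 0.05, the genes followed by the study, Lmx1b, and, per list, the lowest p-values in each direction and the most abundant member. Genes called in C118F mice, Irf9, H2-K1, Psmb10 and Pdia3 were named after their values were seen. The members and the gene lists were chosen with earlier results of these data known. The fit was tested on simulated data. Alternatives covered the pseudocount, the filter, the scaling, the mice fitted, covariates, weights and each mouse left out. Limma voom on recovered reads and leaving out 3 libraries together were added after the data were seen. Some genes are not reported here. Motifs were searched with Python 3.11.15.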

Additional observations from a re-analysis of the deposited data

Results flagged for a closer look

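In groups of 5 or 6 mice, 172 sets of values were examined, and in 26 of them 1 mouse lay far from the others of its group. The share of sets that chance would flag was not tested. Replicate 1 of the DMSO-treated control mice stood apart for Lyz2 (285 TPM), Mylpf (166.7 TPM), Eno3 (97.8 TPM), Ifitm3 (140.3 TPM) and Serping1 (267.1 TPM). The same mouse stood apart in the summed markers of leukocytes (560 TPM), mesangium and smooth muscle (185.2 TPM) and erythrocytes (93.55 TPM).

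Replicate 1 of the DMSO-treated C118F mice was far above its group for Tgtp2 (636.9 TPM), Ifitm3 (1626 TPM), Cd63 (2293 TPM), and the sums of mesangial and smooth muscle markers (3252 TPM) and of endothelial markers (182.6 TPM). Proximal tubule markers summed to 2046 TPM in replicate 2 of the DMSO-treated control mice, 1570 TPM in replicate 2 of the bortezomib-treated control mice and 388 TPM in replicate 4 of the DMSO-treated C118F mice. Thick limb and distal tubule markers summed to 1749, 335.2 and 174.5 TPM in these 3 mice. Parietal epithelial markers reached 565 TPM in replicate 2 of the bortezomib-treated control mice, and erythrocyte markers 33.42 TPM in replicate 4 of the DMSO-treated C118F mice.

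Cd200 had 70.27 TPM in replicate 6 of the DMSO-treated and 3.153 TPM in replicate 2 of the bortezomib-treated control mice. Ifitm3 had 58.77 TPM in replicate 5 of the bortezomib-treated C118F mice. The noncoding RNA Gm45069 had 6.661 TPM in replicate 5 of the bortezomib-treated control mice and 10.76 TPM in replicate 2 of the bortezomib-treated C118F mice, which was also the library of lowest depth. The results were recomputed without each of these mice, without 3 of the libraries together and with array weights.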

How the results depend on the processing

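No gene passed for the difference of the responses under 33 of 34 alternatives, and 1 did with array weights, Lgals3bp at -2.11 (adjusted p = 0.0308). Leaving out each mouse gave 0 to 0 genes. The 8 genes that bortezomib changed in C118F mice became 27 with all 35 mice in 1 fit, 16 with array weights, 5 with a mean TPM above 5, 3 without the 3 libraries of lowest depth, most leukocyte and most tubule RNA, 2 with mouse numbers as a covariate or with low genes kept, and 1 with a pseudocount of 0.1, with the Ddx3y level as a covariate or with voom on recovered reads. Leaving out each mouse gave 1 to 57. In control mice the count was 0 to 1 on leaving out a mouse, the 1 being without replicate 5 of the bortezomib-treated mice, and 0 otherwise. Ddx3y was near 0 in all mice, so that this covariate held little information on sex, which is not labelled. The cause of these shifts was not tested.

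Of 1015 values of named genes under an alternative, 967 kept their direction and their side of the threshold. No value was obtained for Gm45069, Gm20732 and Tnxb with a mean TPM above 5, or for Gm45069 and Lyz2 with voom. Reversals were seen for 8 genes, with estimates from -0.25 to 0.17. With mouse numbers as a covariate, Cd63 was at 0.00, Cdkn1c and Tagln at 0.07 and Lmx1b at -0.13. With array weights Cd63 was at 0.10, Cldn5 at -0.17 and Flna at -0.20. Cldn5 was at -0.04 with a common median, -0.07 with voom and -0.03 without the 3 libraries. On leaving out a mouse, values ran from -0.12 to 0.14 for Cd63, -0.15 to 0.20 for Cldn5, -0.03 to 0.27 for Flna, -0.75 to 0.29 for Lgals3, -0.20 to 0.26 for Lmx1b, -0.02 to 0.33 for Mustn1 and -0.36 to 0.10 for Tagln. The 20 list medians moved by less than the replicate spread, but 8 changed sign under some alternative. These were the 7 within 0.02 of 0 (26S proteasome, heat shock chaperones, unfolded protein response, oxidative stress, actin, BCL2 family, Lmx1b and cofactors) and that of the mitochondrially encoded genes, from 0.16 to -0.26 without the 3 libraries. No paired analysis was possible because the mouse numbers in the labels are unique to each mouse.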
